A study of Mus musculus with 16 samples.

Results

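The transcriptomes of neutrophils from germ-free (GF) mice were compared with those of neutrophils from specific pathogen free (SPF) mice, over blood, spleen and lung at once. All 16 libraries of the series entered, 8 from GF and 8 from SPF mice, with tissue as a block in the model, and the genes looked for were those that moved the same way in the 3 tissues. GF mice are raised without microorganisms, whereas SPF mice carry a microbiota free of listed pathogens. All mice were C57BL/6, and the cells were sorted for surface Ly6G with CD45, CD11b and DAPI staining. The groups were GF blood (2 libraries), SPF blood (2), GF spleen (3), SPF spleen (3), GF lung (3) and SPF lung (3), with no treatment beyond housing named in the labels and no age or sex given. The labels do not say whether libraries of a group came from separate mice, and each p-value speaks of the variation between libraries, part of which may be technical. In 4 of the 6 groups (spleen and lung, GF and SPF) some libraries held reads of the Y-linked genes Ddx3y and Eif2s3y and others held reads of Xist and none of these, so the libraries of each of these groups did not all come from a single mouse. Neither blood group showed both kinds. Both SPF blood libraries held reads of Xist and none of the Y-linked genes. Of the GF blood libraries, replicate 2 held reads of the Y-linked genes and replicate 3 held neither kind. Status and sex-linked reads were thus not balanced in blood.

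Neutrophils are short-lived phagocytes that leave the bone marrow, circulate in blood and pass through organs such as spleen and lung. Products of the microbiota reach the marrow and the blood, where pattern recognition receptors, cytokine receptors and hormone receptors set how neutrophils are made, how they age and how readily they respond. Mice without a microbiota are therefore used to ask which parts of the neutrophil programme depend on microbial exposure.

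The level of a gene is its normalised count, the value in the authors' table once the 0.5 reads added to each gene are taken off. Differences are GF minus SPF on the log2(value + 1) scale, with the value as deposited. A gene passed when its adjusted p in the limma fit with tissue as block was under 0.05. Of 8299 genes tested 39 passed (0.47%), 34 with higher levels in GF (0.41%) and 5 with lower levels (0.0602%). In 18 of the 39 the difference was at least 1 on the log2 scale. All 39 had the same sign in blood, spleen and lung. The fit averages the tissues, so that genes with one direction are favoured by its construction. Among all tested genes 2709 (32.6%) had one sign in the 3 tissues, 1452 higher (17.5%) and 1257 lower (15.1%). In the libraries as sequenced, fewer cells that express a gene and less of its RNA per cell cannot be told apart.

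The depth, as reads recovered from the deposited values, ran from 104213 to 3033941 per library, with medians of 514187 in GF and 768864 in SPF libraries. The tissue-stratified difference in log2 depth was -0.751 (two-sided exact permutation test, p = 0.475 over 2400 arrangements). The neutrophil markers S100a8, S100a9, Csf3r, Cxcr2, Mmp9 and Retnlg stood at 905 or more in all 16 libraries, and none of them passed the test. Transcripts of other cells were present: the summed level of the 20 listed erythroid and platelet genes ran from 108.1 to 100400.0 in GF and 94.0 to 71028.7 in SPF libraries, with the high values in blood and in spleen GF replicate 1, which stood at 22159 against at most 141 in the other spleen libraries, and that of 23 lung structural genes from 148.1 to 13427.3 in GF and 137.2 to 7361.4 in SPF libraries, with the high values in lung. Without spleen GF replicate 1, 36 genes passed, 23 of the 39 among them. Lung SPF replicate 2 stood nearer to the GF libraries than the other lung SPF libraries did. It had the lung SPF level closest to GF in 32 of the 39 genes, against 1 and 6 genes for lung SPF replicates 1 and 3. Without it 72 genes passed, all 39 among them. It was also the one lung SPF library with reads of Xist and none of Ddx3y or Eif2s3y, and 2 of the 3 lung GF libraries were of this kind. Over all tissues both Y-linked genes were read in 3 GF and 4 SPF libraries. Of these, 1 GF and 0 SPF libraries were from blood. None of the 12 tested genes of the sex-linked and substrain list passed. Of the genes that passed, Rbm3, Tlr13 and Tlr7, which are not in that list, lie on chromosome X. With the level of Ddx3y and Eif2s3y as a covariate, a fit chosen after the data were seen, 37 genes passed, 34 of the 39 among them.

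Promoters are shown for 3 of the genes whose groups did not overlap in any tissue, 2 with higher and 1 with lower levels in GF, chosen because these genes moved together in all tissues. Each line gives the 250 bases before the RefSeq start on GRCm38.p6, 5′ to 3′ on the strand of the gene. The Fkbp5 and Cirbp windows lie inside the spans annotated by GENCODE, which start further upstream, and the Cirbp window is the first of 2. Capitals mark AGAACA (one arm of the glucocorticoid receptor motif), CACGTG (the E-box), CCAAT (the motif of the factor NF-Y), GGGCGG (the GC box of the factor Sp1) and TATAAA (the TATA box), searched on both strands, where neighbouring matches can run together.

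Crispld2, chr8:119992188-119992437, plus strand: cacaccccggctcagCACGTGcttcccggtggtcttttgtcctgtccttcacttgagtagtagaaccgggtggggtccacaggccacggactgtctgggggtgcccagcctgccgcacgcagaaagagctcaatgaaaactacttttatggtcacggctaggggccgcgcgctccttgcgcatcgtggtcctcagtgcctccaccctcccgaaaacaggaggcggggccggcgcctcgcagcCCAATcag

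Fkbp5, chr17:28486150-28486399, minus strand: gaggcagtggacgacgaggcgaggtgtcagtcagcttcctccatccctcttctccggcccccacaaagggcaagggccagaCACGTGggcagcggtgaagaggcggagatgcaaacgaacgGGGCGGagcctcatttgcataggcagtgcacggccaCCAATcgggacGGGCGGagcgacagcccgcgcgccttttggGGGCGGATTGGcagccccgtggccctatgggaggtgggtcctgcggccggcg

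Cirbp, chr10:80167589-80167838, plus strand: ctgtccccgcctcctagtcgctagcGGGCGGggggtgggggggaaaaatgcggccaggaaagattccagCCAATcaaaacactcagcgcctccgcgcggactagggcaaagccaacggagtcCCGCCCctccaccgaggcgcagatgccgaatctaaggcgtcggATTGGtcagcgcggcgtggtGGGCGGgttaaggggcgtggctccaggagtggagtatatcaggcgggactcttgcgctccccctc

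The table held 40 windows for 31 of the 39 genes and 32851 windows in all. The 32851 were not limited to the genes tested here, and the shares over tested genes alone were not computed. CACGTG was found in 12.5% of the windows of the 39 genes and in 6.0% of all windows, in Crispld2 235 bases and in Fkbp5 169 bases before the start. The AGAACA letters were found in 15% and 16.1% and in none of the windows printed. CCAAT was held by 50% of the 40 windows against 33.8% of all windows, the GC box by 57.5% against 32.7%, and the TATA box by 12.5% against 12.4%. These are descriptions of the letters in the windows. They do not show binding.

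The difference of smallest p was that of Crispld2 (ENSMUSG00000031825, chromosome 8, 119992438 to 120052793, plus strand, GRCm38), a secreted protein that binds lipopolysaccharide and that is known as a glucocorticoid target in airway smooth muscle. The level in blood was 321 and 237 in GF against 129 and 75.3 in SPF libraries, in spleen 426, 343 and 408 against 91.5, 112 and 94.05, and in lung 474, 330.1 and 403 against 63.1, 223 and 88.5. Every GF library lay above every SPF library, and the highest SPF value came from lung SPF replicate 2. The level was 368 ± 74.4 in GF against 109 ± 49.99 in SPF libraries (SD, n = 8 each), a difference of 1.80 ± 0.19 (SE), adjusted p = 1.91e-06. It was 1.49 in blood, 1.95 in spleen and 1.87 in lung, and it passed in the contrasts within spleen and within lung (adjusted p = 0.00305 and 0.0138). The predicted gene Gm20388 overlaps Crispld2, and the protocols do not describe libraries that mark strand, so their reads cannot be told apart.

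**Figure D1:**
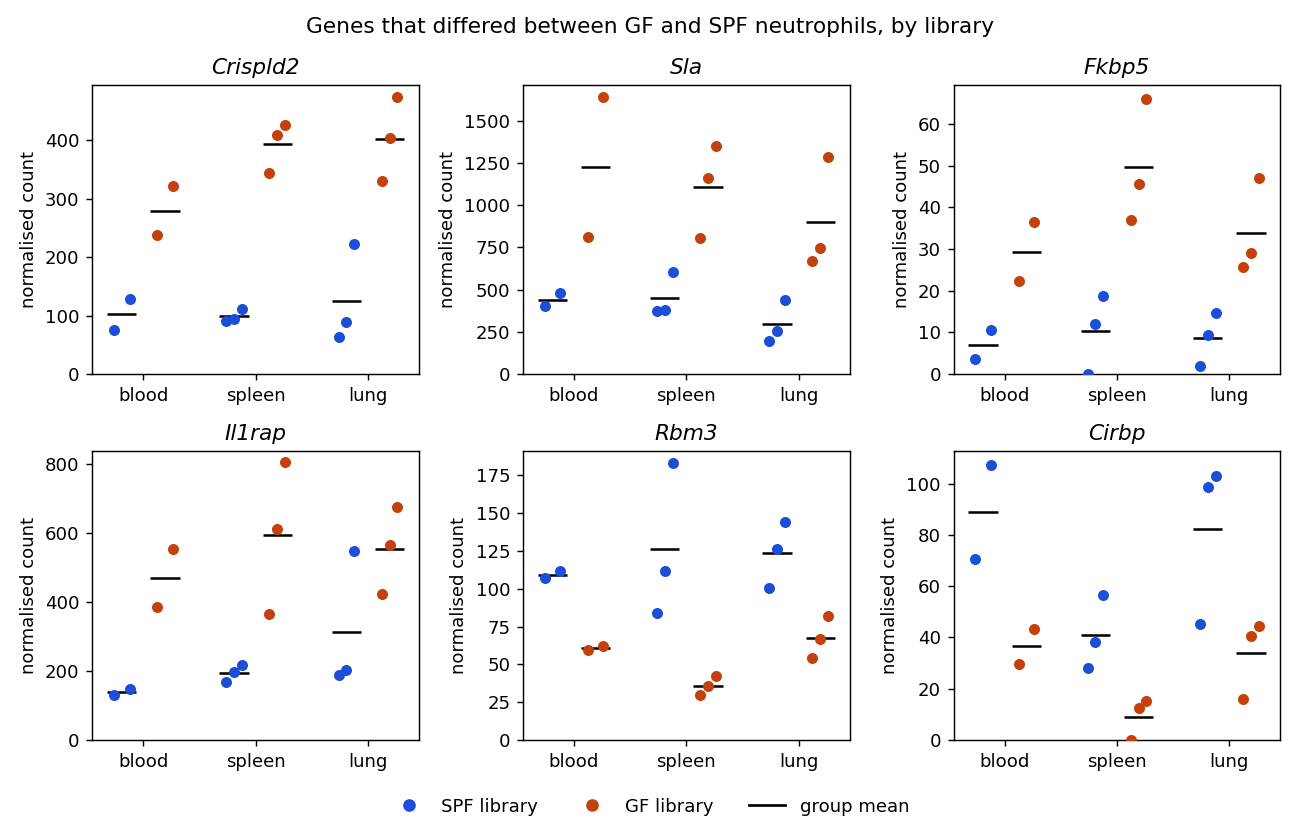
Normalised counts (y axis, from 0) of 6 genes in each of the 16 libraries, by tissue (x axis). Each point is a library, orange for GF and blue for SPF, and black bars are group means. Crispld2, Sla and Fkbp5 were higher in all 8 GF libraries than in all 8 SPF libraries and Rbm3 was lower in all 8. Il1rap overlapped in lung through 1 SPF library, and Fkbp5 values of shallow libraries rest on few reads.

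Of the genes of glucocorticoid response, Fkbp5 and Pik3ip1 were higher in GF. Glucocorticoids are adrenal hormones whose receptor in the cell switches on a set of target genes, and in neutrophils they prolong survival and alter trafficking. Fkbp5 (ENSMUSG00000024222, chromosome 17, 28399094 to 28517527, minus strand) encodes a co-chaperone that restrains the glucocorticoid receptor and is itself a classic target. GF libraries measured 36.5 and 22.2 in blood, 45.6, 37.03 and 66.1 in spleen and 47.1, 25.7 and 29.00 in lung, and SPF libraries 3.61 and 10.6 in blood, 0, 11.9 and 18.8 in spleen and 1.97, 9.32 and 14.6 in lung. All 8 GF values lay above all 8 SPF values, and 1 SPF spleen library, the shallowest with 104213 reads, held no read of it. In GF blood replicate 3, which had the lowest GF value, a single read stood at 7.41. In SPF spleen replicate 4, which had the highest SPF value, it stood at 4.70. Both values thus rest on few reads, and their order was that of the depth scaling. The difference was 2.07 ± 0.34 (SE), adjusted p = 0.00198, and was close to even over the tissues (2.08 in blood, 2.18 in spleen and 1.96 in lung). Pik3ip1, an inhibitor of phosphoinositide 3-kinase, ran at 22.2, 43.1 and 101 in GF and 0, 20.2 and 29.1 in SPF libraries (lowest, median and highest). Its groups overlapped in blood, and the difference was 1.32 ± 0.31 (SE), adjusted p = 0.0412. It passed in 5 of the 16 fits that leave out 1 library.

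The glucocorticoid list held 12 tested genes, of which 2 passed with higher and 0 with lower levels in GF, and its median difference was 0.52 against 0.02 over all genes tested. At an unadjusted p under 0.05 the list had 6 higher and 0 lower, where all genes had 6.86% higher and 5.41% lower. The other 4 of the 6 were Mt1 (metallothionein, 0.92, adjusted p = 0.288), Errfi1 (a feedback inhibitor of growth factor receptors, 0.84, adjusted p = 0.29), Il1r2 (the decoy interleukin 1 receptor, 0.68, adjusted p = 0.306) and Tsc22d3 (GILZ, a mediator of glucocorticoid effects, 0.58, adjusted p = 0.36). By tissue, Tsc22d3 measured -0.06 in blood, 0.91 in spleen and 0.68 in lung, and Il1r2 0.40 in blood, 1.67 in spleen and -0.11 in lung. Nr3c1, the receptor itself, differed by 0.01 and the targets Sgk1 and Dusp1 by 0.08 and -0.07. The median of the list was 0.25 in blood, 0.94 in spleen and 0.37 in lung.

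Both cold-inducible RNA-binding proteins were lower in GF. Rbm3 and Cirbp bind messenger RNA, are made at mildly lowered temperature and are known to follow the daily rhythm of body temperature. Rbm3 (ENSMUSG00000031167, chromosome X, 8138975 to 8145880, minus strand) differed by -1.15 ± 0.20 (SE), adjusted p = 0.00274. Rbm3 levels from blood were 62.2 and 59.3 in GF against 112 and 107 in SPF libraries, those from spleen 35.5, 29.6 and 42.05 against 83.8, 112 and 183, and those from lung 82.1, 53.98 and 66.7 against 144, 100.2 and 126. All 8 GF libraries lay below all 8 SPF libraries. Spleen had the widest gap of the 3 tissues (-0.79 in blood, -1.68 in spleen and -0.86 in lung), and the difference between tissues had an adjusted p of 0.546. Cirbp (ENSMUSG00000045193, chromosome 10, 80165985 to 80172786, plus strand) showed the same order within each tissue. Its GF levels of 43.5 and 29.6 in blood stood against SPF levels of 70.5 and 107, those of 15.2, 12.3 and 0 in spleen against 38.1, 56.6 and 28.2, and those of 44.7, 40.7 and 15.9 in lung against 98.5, 45.4 and 103. No tissue had overlapping groups, although GF values from blood and lung lay above SPF values from spleen. The difference was -1.54 ± 0.30 (SE), adjusted p = 0.0118, and 1 GF spleen library held no read of it.

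Of the chaperones, Hspa8 was higher in GF. It encodes the constitutive heat shock cognate 70 protein, which folds new proteins and delivers others to the lysosome, and it ran at 1207, 1398 and 1628 in GF and 427, 736 and 1463 in SPF libraries. The difference was 0.82 ± 0.18 (SE), adjusted p = 0.0335, and it was widest in spleen (0.50 in blood, 1.49 in spleen and 0.35 in lung, interaction adjusted p = 0.168). In spleen it measured 1326, 1575 and 1628 in the GF libraries and 427, 600.2 and 593 in the SPF libraries, without overlap, while in blood and lung an SPF library (blood replicate 3, lung replicate 2) lay within or above the GF values. The heat shock and unfolded protein response list had 1 of 25 genes higher and 0 lower, and a median of 0.31. At an unadjusted p under 0.05, 8 were higher (32%, against 6.86% over all genes) and 0 lower (5.41% over all genes). Among the 8 were Hsp90ab1 (0.54, adjusted p = 0.108) and Hspa1b (1.36, adjusted p = 0.219), the stress-inducible chaperone, with 1.44 in blood, 1.13 in spleen and 1.55 in lung. The clock genes Per1 and Per2, which set the daily rhythm, differed by 0.47 and 0.58 (adjusted p = 0.565 and 0.487), and 0 of 9 tested clock genes passed, with 0 higher and 0 lower at an unadjusted p under 0.05.

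Among sensors of microbial molecules, the endosomal receptors Tlr13 and Tlr7 were higher in GF. Tlr13 binds a stretch of bacterial ribosomal RNA and Tlr7 binds single-stranded RNA. Tlr13 (ENSMUSG00000033777, chromosome X, 106143204 to 106160493, plus strand) differed by 0.90 ± 0.18 (SE), adjusted p = 0.0126. The level in blood was 1106 and 844 in GF against 235 and 309 in SPF libraries, in spleen 725, 958 and 1129 against 724, 457 and 545, and in lung 1061, 716 and 844 against 676, 734 and 481. The groups stood far apart in blood, all but touched in spleen and overlapped in lung. The difference was 1.84 in blood, 0.70 in spleen and 0.47 in lung, and passed in the contrast within blood (adjusted p = 0.000523). The test of whether it differed between tissues gave an adjusted p of 0.129. Tlr7 (ENSMUSG00000044583, chromosome X, 167304929 to 167330558, minus strand) ran at 12.3, 23.5 and 78.1 in GF and 1.35, 7.44 and 15.2 in SPF libraries and differed by 1.85 ± 0.37 (SE), adjusted p = 0.0128. It was apart in blood and lung and overlapped in spleen, where SPF replicate 1 exceeded GF replicate 3. Without spleen GF replicate 4, the library with the highest value, its adjusted p was 0.0506. Tlr7 passed in 13 of 18 other settings, and its adjusted p reached 0.616. The call was lost without blood, without lung and with neither trend nor robust prior. It was also lost without the 5 libraries under 250000 reads and with every library thinned to 100000 reads. A single read stood at 7.41 in GF blood replicate 3 and 7.62 in SPF spleen replicate 1. Tlr7 measured 22.2 and 15.2 there, so these values rest on few reads.

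Nlrx1, a mitochondrial member of the NOD-like receptor family that dampens antiviral and NF-kB signalling, was also higher (0.91 ± 0.21 (SE), adjusted p = 0.0412). It ran at 66.7, 132 and 167 in GF and 35.2, 62.3 and 99.1 in SPF libraries, and passed in 5 of 16 fits without 1 library. The list of 31 pattern sensors had 2 higher, 0 lower and a median difference of 0.02, beside 0.02 over all genes. Tlr4, the lipopolysaccharide receptor, had 0.61, adjusted p = 0.139. Tlr2, for bacterial lipoproteins, had 0.54, adjusted p = 0.171, and Aim2, a sensor of cytosolic DNA, had -0.99, adjusted p = 0.231. Of the 26 genes of Toll-like receptor signalling 0 passed. At an unadjusted p under 0.05, 2 were higher (7.69%) and 1 lower (3.85%), near the 6.86% and 5.41% over all genes.

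Receptors of 2 cytokines moved in opposite directions. Il1rap (ENSMUSG00000022514, chromosome 16, 26581704 to 26730117, plus strand), the co-receptor through which interleukin 1, interleukin 33 and interleukin 36 signal, was higher in GF by 1.37 ± 0.20 (SE), adjusted p = 0.00152. GF libraries measured 553 and 385 in blood, 365, 612 and 805 in spleen and 675, 424 and 565 in lung, and SPF libraries 147 and 131 in blood, 168, 217 and 198 in spleen and 189, 549 and 204 in lung. In blood and spleen the groups stood clear of each other, and in lung SPF replicate 2 lay among the GF libraries. Ifngr2 (ENSMUSG00000022965, chromosome 16, 91547072 to 91565623, plus strand), the signal-transducing chain of the interferon gamma receptor, was lower in GF, with a difference of -1.08 ± 0.18 (SE), adjusted p = 0.00177. Ifngr2 levels from blood were 139 and 104 in GF against 289 and 311 in SPF libraries, those from spleen 107, 148 and 114 against 129.6, 231 and 183, and those from lung 45.9, 48.7 and 55.1 against 156, 139.8 and 133. Blood and lung had no overlap, spleen did, and the contrast within lung gave an adjusted p of 0.0138 with a difference of -1.49. The difference between tissues had an adjusted p of 0.397, and without lung the adjusted p in the shared fit was 0.181.

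No other gene of these lists passed. In the list of G-CSF, interleukin 17 and interleukin 1 genes, Il1rap was 1 of 23. At an unadjusted p under 0.05, 3 were higher (13%) and 2 lower (8.7%), among the latter the cytokine Il1b (-0.76, adjusted p = 0.114). Over all genes 6.86% were higher and 5.41% lower at that limit. Of 38 NF-kB targets and inflammatory cytokines 0 passed, with 1 higher (2.63%) and 4 lower (10.5%) at that limit. Osm, which encodes oncostatin M, had -0.997, adjusted p = 0.139. The interferon response list had 0 of 53, with 6 higher (11.3%) and 4 lower (7.55%), beside 6.86% and 5.41% over all genes. The members of this list went both ways. Slfn8, Slfn5 and Cmpk2 stood at 0.69, 0.78 and 0.52 (adjusted p = 0.108, 0.114 and 0.121). Zbp1, a sensor of nucleic acids that triggers cell death, stood at -1.35, adjusted p = 0.0901.

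Genes of MHC class I presentation, which display peptides to CD8 T cells, had the lowest median of the lists with 10 or more tested genes. Of 20 genes 0 passed. At an unadjusted p under 0.05, 10 were lower (50%, against 5.41% over all genes) and 1 was higher (5%, against 6.86%). In all 3 tissues 13 of the 20 were lower (15.1% over all genes). The median difference was -0.46 with the tissues together, -1.06 in blood, -0.14 in spleen and -0.18 in lung. H2-K1, a classical heavy chain, measured 889 ± 105 in GF against 1759.8 ± 936 in SPF libraries (SD, n = 8 each, -0.82, adjusted p = 0.0956), with -1.89 in blood, -0.59 in spleen and -0.33 in lung. H2-Q7 and H2-Q6, from the Qa-2 cluster, stood at -1.37 and -2.85 (adjusted p = 0.0771 and 0.0883), and the immunoproteasome subunits Psmb8 and Psmb9 at -0.63 and -0.69 (adjusted p = 0.086 and 0.131). H2 genes are close copies of each other, so reads could be shared between them.

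Granule and secreted proteins of neutrophils supplied 2 of the 34 higher genes. Granules are filled in sequence as the cell matures in the marrow, and the transcripts of the early granules are high in immature cells. Chil3 (ENSMUSG00000040809, chromosome 3, 106147554 to 106167564, minus strand), the chitinase-like lectin Ym1, was higher by 1.35 ± 0.23 (SE), adjusted p = 0.00662. Its GF levels of 98.7 and 96.3 in blood stood against SPF levels of 21.7 and 52.1, those of 3632, 2153 and 1736 in spleen against 899, 1436 and 1039, and those of 152, 159 and 509 in lung against 78.8, 81.6 and 84.3. The groups were apart in each tissue, and in both kinds of mice every spleen library lay above every blood and lung library. Chil3 has a near-identical neighbour, so that its reads could be shared. Cd177, a neutrophil surface protein that pairs with proteinase and integrin, ran at 215, 352 and 1633 in GF and 141, 233 and 718 in SPF libraries and differed by 0.62 ± 0.15 (SE), adjusted p = 0.0412, with overlap in lung. It passed in 4 of 16 fits without 1 library.

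The 15 tested granule genes had 2 higher, 0 lower and a median of 0.36. At an unadjusted p under 0.05, 7 were higher (46.7%, against 6.86% over all genes) and 0 lower (5.41% over all genes). Ltf, which encodes lactoferrin, stood at 1.51, adjusted p = 0.309, Olfm4 at 0.92, adjusted p = 0.178 and Mmp8, the neutrophil collagenase, at 0.36, adjusted p = 0.206. S100a8 and S100a9, which were in the list too, stood at -0.47 and -0.54 (adjusted p = 0.607 and 0.458).

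Carriers of iron and vitamin B12 were both higher. Trf (ENSMUSG00000032554, chromosome 9, 103204001 to 103230444, minus strand), transferrin, measured 1224 ± 191 in GF against 733 ± 215 in SPF libraries (SD, n = 8 each) and differed by 0.77 ± 0.13 (SE), adjusted p = 0.00298. The level in blood was 1441 and 1489 in GF against 1163 and 621 in SPF libraries, in spleen 1146, 1150.0 and 1068 against 518, 571 and 635, and in lung 1326, 1251 and 922 against 652, 923 and 778. Blood and spleen had no overlap, and lung overlapped by 1 SPF library, replicate 2, which was at the level of the lowest GF library. Tcn2 (ENSMUSG00000020432, chromosome 11, 3917192 to 3932159, minus strand), transcobalamin II, differed by 0.88 ± 0.16 (SE), adjusted p = 0.0046. GF libraries measured 894 and 622 in blood, 806, 837 and 733 in spleen and 796, 852 and 705 in lung, and SPF libraries 777 and 519 in blood, 274, 329 and 319.7 in spleen and 323, 604 and 436 in lung. The gap was widest in spleen (0.24 in blood, 1.36 in spleen and 0.83 in lung, interaction adjusted p = 0.284). It passed in the contrast within spleen (adjusted p = 0.00213), whereas the blood groups overlapped. Trf stands in the macrophage and monocyte list, of which 1 of 16 tested genes passed. At an unadjusted p under 0.05, 5 were higher (31.2%, against 6.86% over all genes) and 0 lower (5.41% over all genes). The summed level of the 22 listed genes ran from 3805.0 to 6699.8 in GF and 3796.1 to 5471.9 in SPF libraries. The splenic macrophage gene Cd5l was at 0 reads in 5 GF and 4 SPF libraries, and C1qa in 2 and 3. Adgre1, the F4/80 antigen of macrophages, was at 0 in no library, with 101, 122 and 165 in GF and 99.95, 142 and 198 in SPF libraries as the lowest, median and highest level (-0.07, adjusted p = 0.895). Csf1r, the receptor for macrophage colony-stimulating factor, was also at 0 in none, with 713, 832 and 1150.5 in GF and 406, 695 and 1019 in SPF libraries (0.35, adjusted p = 0.301). The part of such cells in the Trf and Tcn2 differences was not tested.

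Other genes that passed encode adaptors, receptors and adhesion proteins, which are described together for their roles and were not a list of their own. Sla (ENSMUSG00000022372, chromosome 15, 66780819 to 66831829, minus strand) encodes the Src-like adaptor, which lowers signalling from antigen and cytokine receptors by aiding their degradation, and was higher by 1.44 ± 0.19 (SE), adjusted p = 0.00016. Sla levels from blood were 1639 and 808 in GF against 406 and 477 in SPF libraries, those from spleen 1349, 805 and 1159 against 373, 379.8 and 602, and those from lung 1287, 672 and 747 against 252, 441 and 194. All 8 GF libraries lay above all 8 SPF libraries, and the difference was near even (1.39 in blood, 1.29 in spleen and 1.63 in lung). Sla lies within the gene Tg on the other strand, so reads of either could count for it. Antxr2 (ENSMUSG00000029338, chromosome 5, 97882783 to 98031043, minus strand), a receptor for collagen and laminin through which anthrax toxin also enters, was higher by 0.98 ± 0.18 (SE), adjusted p = 0.00662, with 396, 531 and 679 in GF and 167, 253 and 536 in SPF libraries. Its difference was widest in blood (1.71 in blood, 0.99 in spleen and 0.48 in lung, adjusted p = 0.00312 for the contrast within blood). Gpr141, an orphan receptor of myeloid cells, was apart in each tissue at 149.6, 191 and 301 in GF and 68.98, 109 and 151 in SPF libraries (0.91 ± 0.18 (SE), adjusted p = 0.0128). Without lung SPF replicate 1 its adjusted p was 0.0545.

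Of the adhesion genes, Rassf5 (RAPL, which activates integrins downstream of Rap1) stood at 0.69, adjusted p = 0.0222, Cyth1 (cytohesin 1, an exchange factor that binds the tail of beta 2 integrins) at 0.96, adjusted p = 0.0276, and Ezr (ezrin, which ties the membrane to actin) at 0.59, adjusted p = 0.0335. Cyth1 groups were apart in blood (254 and 185 in GF against 107 and 62.4 in SPF libraries) and spleen (238, 170.3 and 180.2 against 76.2, 68.5 and 61.1), and overlapped in lung (197, 118 and 117 against 82.8, 156 and 147, interaction adjusted p = 0.237). Clic4, a chloride intracellular channel protein, stood at 1.35, adjusted p = 0.0315, and Glipr2, a Golgi-associated protein, at 0.63, adjusted p = 0.0439. Clic4 ran highest in lung, 356, 326 and 496 in the GF libraries and 158, 308 and 226 in the SPF libraries, where the lung structural genes also summed to more in GF (11070 ± 4006) than in SPF libraries (5687 ± 1703), and their part in it was not tested. Serinc3, a membrane protein that curbs retroviruses, was apart in each tissue (1718, 2141 and 3032 in GF and 1082, 1444 and 1784 in SPF libraries, 0.59 ± 0.12 (SE), adjusted p = 0.0106). Prkcb, protein kinase C beta, which activates the phagocyte oxidase, was lower (-1.07 ± 0.24 (SE), adjusted p = 0.0335). It ran at 17.4, 22.4 and 37.03 in GF and 31.2, 49.97 and 136 in SPF libraries and was apart in each tissue.

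**Figure D2:**
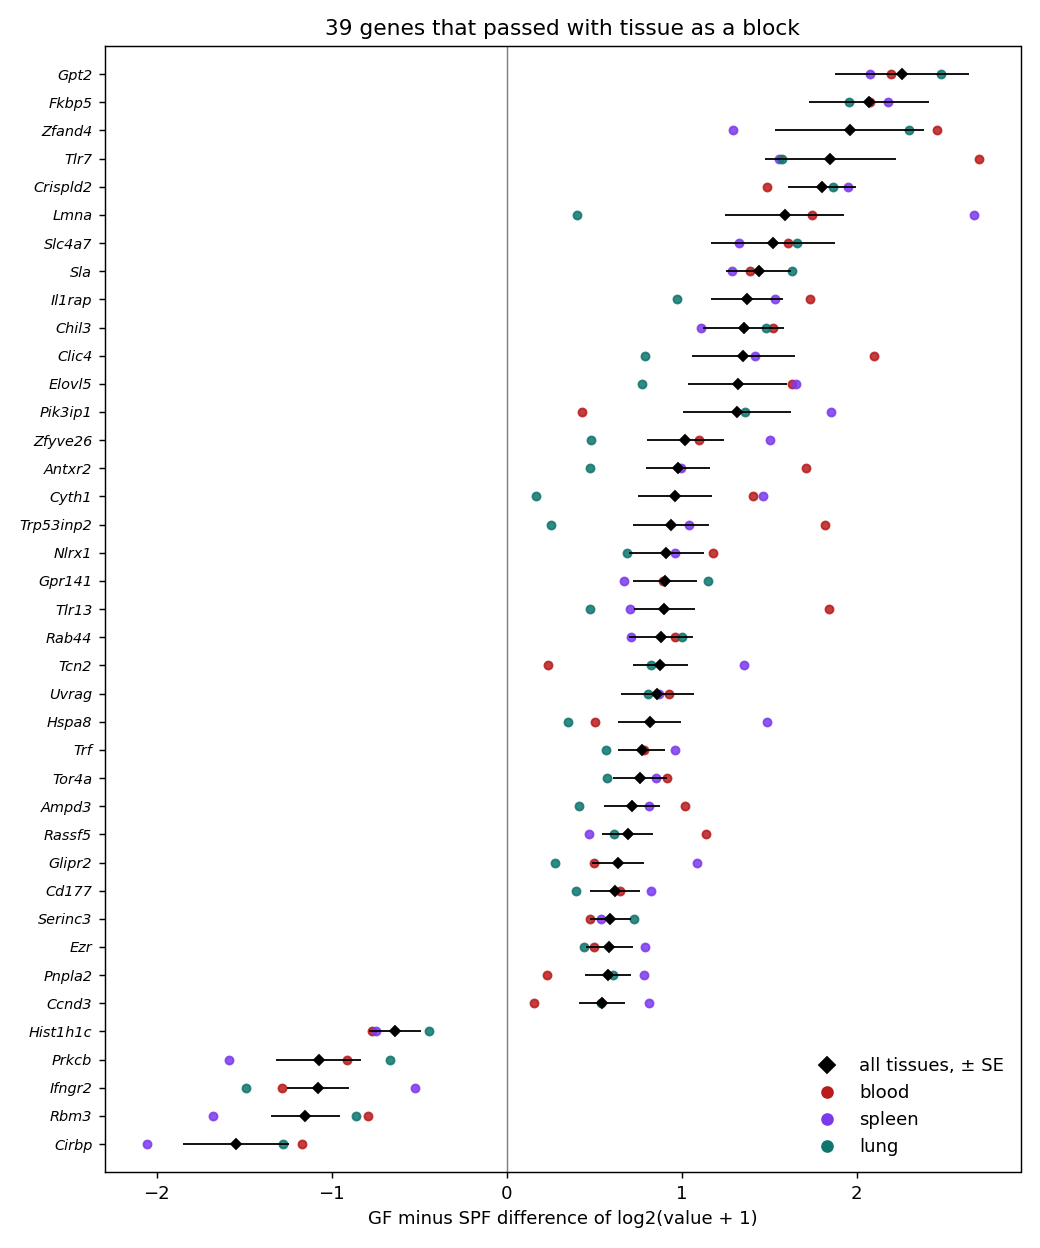
GF minus SPF differences on the log2(value + 1) scale (x axis) of the 39 genes that passed (y axis). Black diamonds are the fit over all tissues with bars of 1 SE, and coloured circles are blood, spleen and lung. All circles of a gene lie on 1 side of 0, and the lung circle is the one nearest to 0 in 21 of the 39 genes.

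Metabolic enzymes were among the higher genes. Gpt2 (ENSMUSG00000031700, chromosome 8, 85492576 to 85527560, plus strand), the mitochondrial alanine aminotransferase, differed by 2.26 ± 0.38 (SE), adjusted p = 0.00245, the largest of the 39 in size. Its GF levels of 18.2 and 0 in blood stood against SPF levels of 0 and 2.35, those of 5.07, 22.2 and 6.01 in spleen against 0, 0 and 0, and those of 28.98, 17.7 and 24.6 in lung against 1.97, 4.66 and 2.08. It was at 0 reads in 1 GF library (blood replicate 3, with 132798 reads in all) and in 4 SPF libraries, so that it rests on few reads. In the fit, 0 reads stood at 3.70 in that GF library and at 0.226 in SPF blood replicate 3, so depth entered the blood difference of Gpt2. With every library thinned to 100000 reads the difference of Gpt2 was 1.10 (adjusted p = 0.314). Elovl5, an elongase of polyunsaturated fatty acids, stood at 1.32, adjusted p = 0.0249 and was apart in each tissue. Pnpla2, the triglyceride lipase of lipid droplets, stood at 0.58, adjusted p = 0.0394, and Ampd3, an AMP deaminase, at 0.72, adjusted p = 0.0335. Slc4a7, a sodium bicarbonate transporter, differed by 1.52 ± 0.35 (SE), adjusted p = 0.0412. It ran at 5.31, 7.33 and 20.3 in GF and 0, 2.02 and 4.7 in SPF libraries, low values that did not overlap over the 16 libraries. A single read stood at 7.41 in GF blood replicate 3, 6.01 in GF spleen replicate 4 and 4.70 in SPF spleen replicate 4. These libraries held 1 read of Slc4a7 each, so their order was that of the depth scaling.

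Genes of vesicles and autophagy were Uvrag (endosome and autophagosome maturation, 0.86, adjusted p = 0.0496), Trp53inp2 (autophagosome formation, 0.94, adjusted p = 0.0391), Zfyve26 (lysosome reformation, 1.02, adjusted p = 0.0249) and Rab44 (a large Rab GTPase, 0.88, adjusted p = 0.0168). Tor4a, of the torsin family of ATPases, was apart in each tissue (88.1, 263 and 384 in GF and 54.1, 139 and 244 in SPF libraries, 0.76, adjusted p = 0.0134). Uvrag had the most even differences of this group (0.93 in blood, 0.87 in spleen and 0.81 in lung) and the adjusted p nearest to the threshold, and it passed in 1 of 16 fits without 1 library. Rab44 lost its call without blood GF replicate 2, spleen SPF replicate 2 or lung SPF replicate 1 or 3 (adjusted p up to 0.0695), and Tor4a without blood GF replicate 2 (adjusted p = 0.0546).

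Of nuclear genes, Lmna and Ccnd3 were higher and Hist1h1c was lower. Lmna encodes lamins A and C of the nuclear envelope, which are low in mature neutrophils. In spleen it measured 25.4, 14.8 and 36.04 in the GF libraries and 0, 2.98 and 0 in the SPF libraries, in blood 16.8 and 51.9 in the GF libraries and 10.4 and 6.66 in the SPF libraries, and in lung 66.4, 46.02 and 57.99 in the GF libraries and 27.6, 52.4 and 51.02 in the SPF libraries. Only the lung groups overlapped, and the difference was 1.59 ± 0.34 (SE), adjusted p = 0.0249 over the tissues, with 1.74 in blood, 2.67 in spleen and 0.40 in lung (interaction adjusted p = 0.273). In spleen a single read stood at 5.07, 2.47 and 6.01 in the GF libraries and 7.62, 1.49 and 4.70 in the SPF libraries, so these values rest on few reads. Lmna passed in 10 of 16 fits without 1 library and in 10 of 18 other settings. Ccnd3, cyclin D3, stood at 0.55, adjusted p = 0.049, 1 of 19 tested cell cycle genes to pass. Hist1h1c, the linker histone H1.2, ran at 168, 235 and 383 in GF and 267, 376 and 619 in SPF libraries and was lower in GF (-0.64 ± 0.15 (SE), adjusted p = 0.0412), with the groups touching in lung. It was the 1 gene of 17 histones and nuclear noncoding RNAs to pass, and the list had a median of -0.31. At an unadjusted p under 0.05, 0 were higher (6.86% over all genes) and 7 lower (41.2%, against 5.41% over all genes). Neat1, the noncoding RNA of paraspeckles, stood at -0.62, adjusted p = 0.0959. The remaining higher gene, a line with the symbol Zfand4 that occurs on 2 lines of the table (ENSMUSG00000108273 here, with no match in the annotation), stood at 1.96, adjusted p = 0.0249.

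Next in order of p were Plin2, Ptp4a1 and Adam8, each with an adjusted p of 0.0529 and a positive difference (0.60, 0.91 and 0.53), which did not pass. Just inside the threshold were Glipr2, Ccnd3 and Uvrag (0.0439, 0.0490 and 0.0496). With lower levels in GF, 5 genes of next smallest p were Trim33 (-1.39, adjusted p = 0.0623), Traf5 (-1.32, adjusted p = 0.0623), Ndufs8 of respiratory complex I (-0.98, adjusted p = 0.0627), Cdkn2d, an inhibitor of the cell cycle (-0.55, adjusted p = 0.0675), and Ctse, cathepsin E (-0.77, adjusted p = 0.0771), and none of them passed. Of these Ndufs8, Cdkn2d and Ctse were apart in each tissue. Cdkn2d had the most even values (-0.52 in blood, -0.60 in spleen and -0.51 in lung) and ran at 192, 231 and 393 in GF and 290.2, 344 and 456 in SPF libraries.

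Of 77 ribosomal protein genes 0 passed. At an unadjusted p under 0.05, 0 were higher and 5 lower (6.49%, near the 5.41% lower over all genes), and the median was -0.29, with -0.85 in blood, -0.09 in spleen and -0.04 in lung. Of 75 genes of oxidative phosphorylation 0 passed, 0 were higher and 7 lower at that limit (9.33%), and the median was -0.25, with -0.84 in blood, -0.12 in spleen and -0.03 in lung. The 25 survival and apoptosis genes had 0 passing, 8 higher (32%, against 6.86% over all genes) and 0 lower, among them Birc3, an inhibitor of apoptosis (0.58, adjusted p = 0.124). Immediate early genes had 0 of 31, with 1 higher (3.23%) and 5 lower (16.1%), Junb at -0.48, adjusted p = 0.114 and Jun at 0.64, adjusted p = 0.148. Hdc, histidine decarboxylase, which is listed with eosinophils, basophils and mast cells and is also made by neutrophils, stood at 3851 ± 664 in GF against 2268 ± 1266 in SPF libraries (SD, n = 8 each, 0.92, adjusted p = 0.122), while Siglecf of eosinophils stood at -0.08 (adjusted p = 0.916). Of the 5 tested genes of that list 0 passed, and the median difference was 0.92. At an unadjusted p under 0.05, 3 were higher (60%, against 6.86% over all genes) and 0 lower. Besides Hdc the higher ones were Gata2 (0.92, adjusted p = 0.288) and Kit (0.96, adjusted p = 0.296), which were at 0 reads in 4 and 3 GF and in 5 and 4 SPF libraries. The part of such cells in the Hdc difference was not tested.

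**Figure D3:**
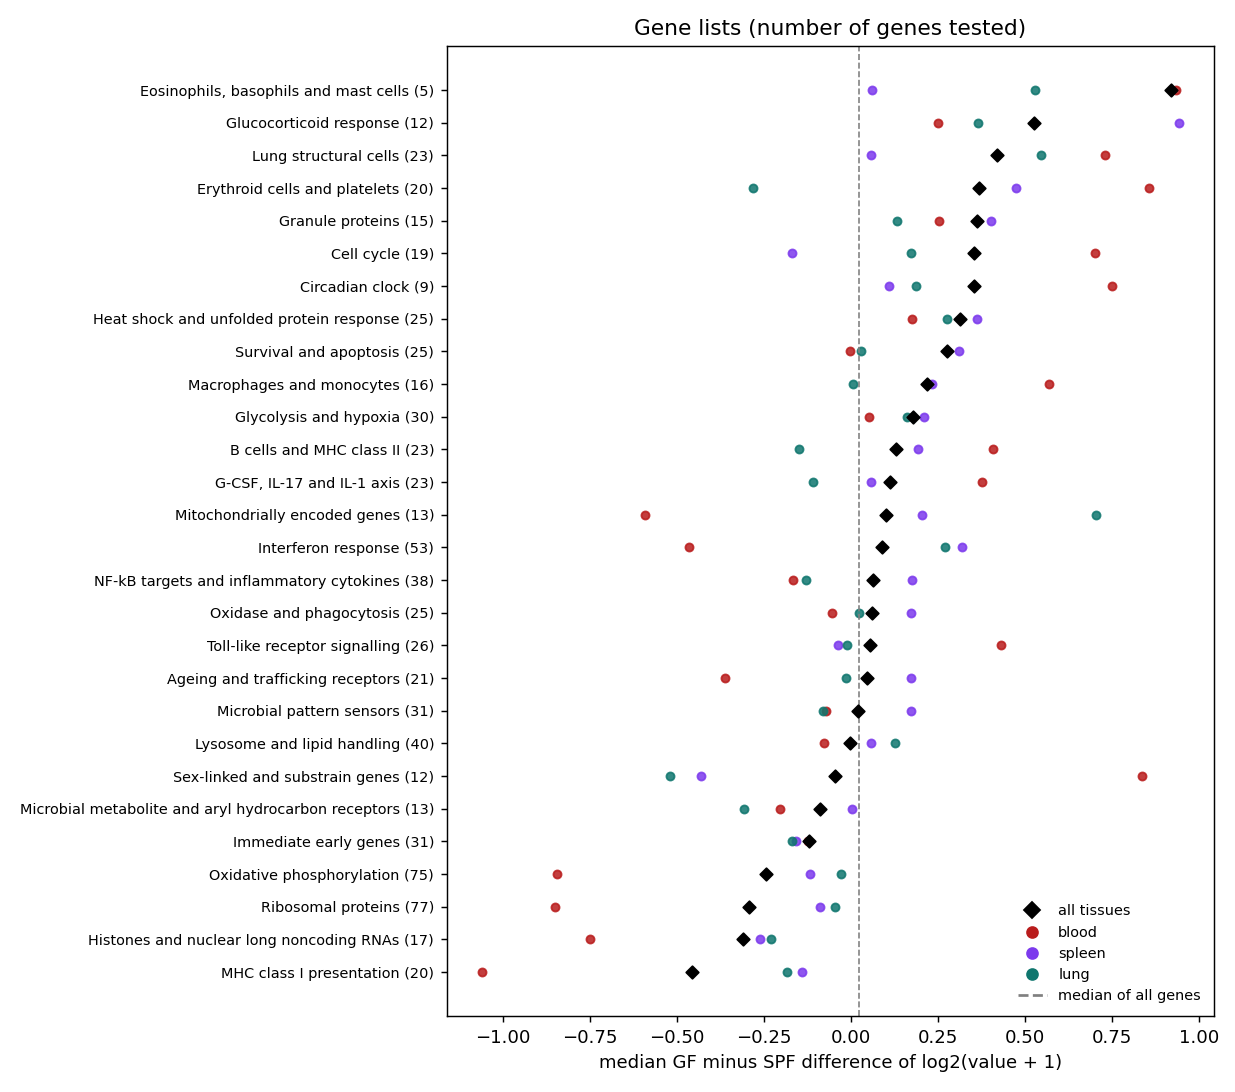
Median GF minus SPF difference on the log2(value + 1) scale (x axis) of the gene lists with 5 or more tested genes (y axis, number tested in brackets). Black diamonds are the fit over all tissues, coloured circles the single tissues, and the dashed line the median of all genes, 0.02. Ribosomal proteins, oxidative phosphorylation and MHC class I lie to the left through blood, whose circles are near -0.85, -0.84 and -1.06.

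Groups that did not overlap in any of the 3 tissues were counted apart from the fit. There were 39 such genes (0.47%), 21 higher (0.253%) and 18 lower in GF (0.217%), and 15 of the genes that passed were among them. All 16 libraries were separated by status in 6 genes (0.0723%). Crispld2, Sla, Fkbp5 and Slc4a7 were higher in GF (0.0482% of genes), and each of these passed. The separation of Slc4a7 rested in part on single reads scaled by depth, and that of Fkbp5 in part on few reads scaled by depth, as given above. Rbm3 and Miip were lower (0.0241%), and Rbm3 passed. Miip, an inhibitor of cell migration, was lower in all 8 GF libraries (18.02 to 42.1 against 43.4 to 76.1) with a difference of -0.73 and an adjusted p of 0.122.

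The tissues contributed unevenly. The contrast within blood gave 110 genes that passed (1.33%), 66 higher in GF (0.795%) and 44 lower (0.53%). Its spread was estimated from all 16 libraries, and without spleen SPF replicate 1 the blood count was 351. The 2 GF blood libraries had 2555255 and 132798 reads, and the 2 SPF blood libraries had 2870559 and 3033941. Spleen gave 27 (0.325%), 21 higher (0.253%) and 6 lower (0.0723%), and lung 2 (0.0241%), 1 higher and 1 lower (0.012% each). Of the 39 shared genes 7 passed in blood, 9 in spleen and 2 (Crispld2 and Ifngr2) in lung. The largest of the 3 differences was that of blood in 14, of spleen in 18 and of lung in 7 of the 39. Across all 8299 genes, which are not independent replicates, the GF minus SPF differences of 2 tissues were weakly related. Pearson's r was 0.01 between blood and spleen, 0.24 between blood and lung and 0.05 between spleen and lung, and Spearman's rho 0.02, 0.24 and 0.06. These tissue differences share no library, but depth differs between the tissues (median 2712907 reads in blood, 199487 in spleen, 856319 in lung). For the 1424 genes with a mean level of at least 100 the r values were 0.08, 0.32 and 0.10.

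**Figure D4:**
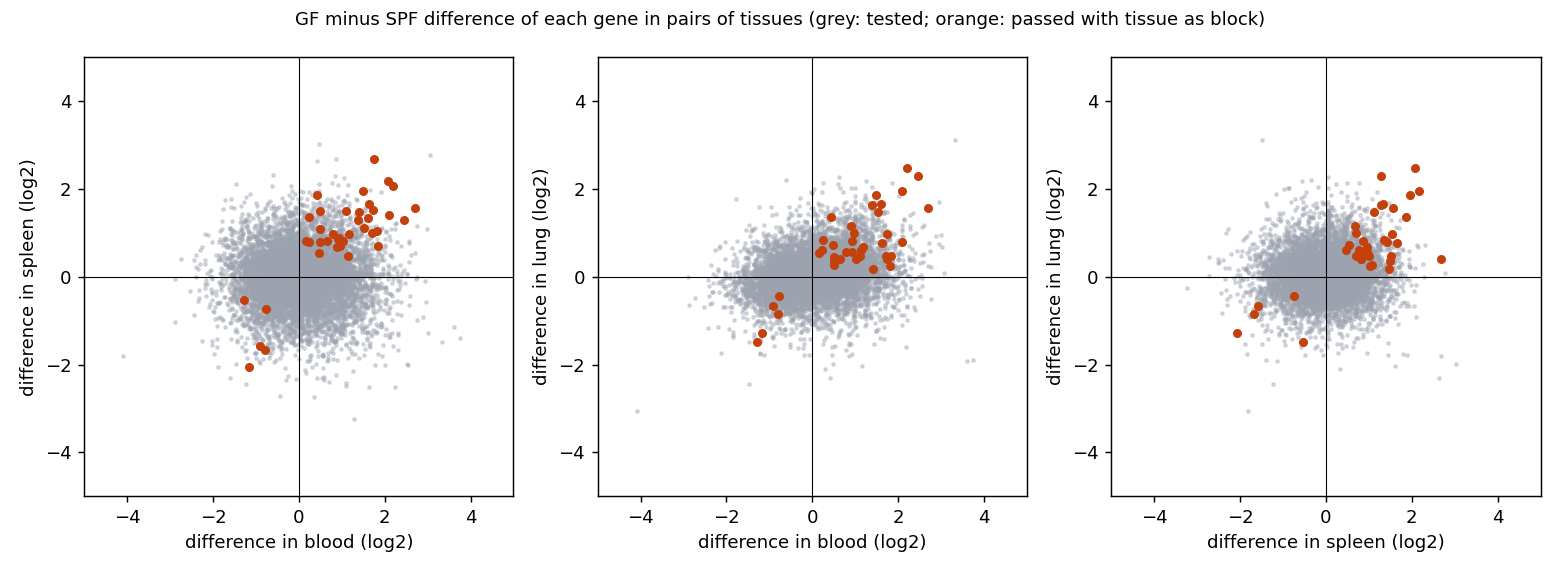
GF minus SPF difference of each tested gene on the log2(value + 1) scale in blood and spleen (left), blood and lung (middle), and spleen and lung (right). Grey points are the 8299 genes and orange points the 39 that passed with tissue as a block, which lie in the quadrants of equal sign while the grey clouds are close to round (r of 0.01, 0.24 and 0.05).

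A test of whether the GF minus SPF difference itself differed between tissues passed for 13 genes (0.157%), 0 of them among the 39. At an unadjusted p under 0.05 the interaction took in 9 of the 39, a larger share than the 904 of 8299 genes (10.9%) tested in all. Malat1, a nuclear noncoding RNA, had the smallest p of the 13, with -2.31 in blood, 0.29 in spleen and 0.05 in lung. The shared fit averaged these to -0.45 (adjusted p = 0.632).

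The size of the shared set depended on single libraries. Without one of them the count of 39 fell to 17 (without blood GF replicate 2 or lung SPF replicate 1), 19 (blood SPF replicate 4 or spleen GF replicate 4), 21 (spleen SPF replicate 2), 22 (spleen GF replicate 3) or 24 (lung GF replicate 2), and it rose to 72 without lung SPF replicate 2 and to 83 without spleen SPF replicate 1, the shallowest library. Of the 39 genes 14 passed whichever library was left out: Crispld2, Sla, Il1rap, Ifngr2, Fkbp5, Gpt2, Rbm3, Trf, Tcn2, Antxr2, Chil3, Serinc3, Cirbp and Tlr13. Gpr141, Tlr7, Tor4a and Rab44 lost the call in 1 to 4 of the 16 fits, as given above, and the other 21 genes passed in 1 to 10 of them. Crispld2, Sla, Fkbp5 and Rbm3 also passed in every other setting tried that tested them.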

How the data were processed

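The authors deposited a single table of signal values that lists 10296 genes in 16 libraries, and no column of per-sample values was left unused. Per the submitters' processing notes, CASAVA, RSEM 1.3.1, limma and the assembly mm10 were used, and annotation version, gene filter and scaling are not given in the sources used here. From the values, the signal has the form of expected reads plus 0.5, scaled to an effective library size, so a gene without reads stands at 0.196 in the deepest and 3.81 in the shallowest library, and depth is the sum of reads recovered by inverting this form. The RNA was amplified from low input with a kit whose protocol does not describe strand. Genes had to reach a value of 10 in 2 or more libraries, which left 8299, and 1997 were not tested. The fit was made in limma 3.58.1 (R 4.3.3) on log2(value + 1), with tissue and status as terms, an empirical Bayes prior that was robust and followed the mean, two-sided p-values, and a threshold of 0.05 after Benjamini-Hochberg adjustment over all genes, and was tested on simulated data. Single tissues and the interaction came from a model of the 6 group means, in which all 16 libraries shared 1 estimate of the spread. The 1 added before the log narrows differences of low genes, but the fit used values with the 0.5 reads left in. A gene without reads thus stood higher in a shallow than in a deep library. This can also widen or create differences of low genes.

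The members, the 30 gene lists and the tests were chosen with earlier results of these data known. By rule the text names the 15 genes of smallest p per direction that passed with 1 sign in the 3 tissues and a mean of at least 10, filled to 10 lower genes, up to 4 members per list and 5 interaction genes. The other genes that passed, those near the threshold, Miip and further list members (such as Tsc22d3, Nr3c1, Sgk1, Dusp1, Ltf and S100a8) were named after their values were seen. Coordinates are from GENCODE M21 (GRCm38, 10275 identifiers matched), counted from 1, and promoters from RefSeq. Alternatives covered the pseudocount, filter, scaling, prior, weights, depth, blocks, each tissue and each library.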

Additional observations from a re-analysis of the deposited data

Results flagged for a closer look

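Among 78 sets of 8 libraries (the GF and the SPF libraries of each of the 39 genes, centred by tissue), 1 held a library set off from the rest by Dixon's ratio. Chance flags about 1 in 20, so 1 in 78 was below the chance rate. The flagged value was that of Il1rap in lung SPF replicate 2, with a level of 548.7 and a ratio of 0.541, above the 95% critical value. Without that library 72 genes passed in the fit over the tissues.

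The GF minus SPF difference differed between tissues, by the test of the interaction, in 13 genes, of which the 5 of smallest p with a symbol of a known gene are given. Malat1, a nuclear noncoding RNA, had an adjusted p of 5.08e-05. It measured 1527 ± 404 in GF against 7545.0 ± 1676 in SPF blood (SD, n = 2 each), 2547 ± 356 against 2124 ± 568 in spleen and 2732 ± 578 against 2592 ± 44.1 in lung (n = 3 each). Lmnb1, which encodes lamin B1 of the nuclear envelope, had an adjusted p of 0.00599. In spleen it measured 158 ± 23.3 in GF against 52.1 ± 16.7 in SPF libraries, a difference of 1.57 on the log2 scale, while blood had -0.58 and lung -0.59. Gabarap, an autophagy protein, also had an adjusted p of 0.00599, with differences of -1.43 in blood, 0.48 in spleen and -0.44 in lung. Cfl1, which encodes the actin-severing protein cofilin, had an adjusted p of 0.0189, with -1.53, 0.47 and -0.51. Slc16a3, a lactate transporter, had an adjusted p of 0.0195, with -0.67, 0.92 and -0.72. In all 5 genes spleen had the highest difference. None of the 5 passed with the tissues together (adjusted p from 0.486 to 0.916). The calls of Gabarap, Cfl1 and Slc16a3 were lost without blood GF replicate 3 or blood SPF replicate 3, those of Cfl1 and Slc16a3 also without spleen GF replicate 3 or spleen SPF replicate 2, and that of Slc16a3 also without lung GF replicate 3 or 4. Cfl1 also lost it without the 5 libraries under 250000 reads. With neither trend nor robust prior all 5 lost the call, and the adjusted p was 0.187 for Malat1, 0.212 for Lmnb1, 0.252 for Gabarap and 0.316 for both Cfl1 and Slc16a3.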

How the results depend on the processing

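All 39 genes kept their direction in every setting that tested them. The count of 39, with tissue as block, was 9 with neither trend nor robust prior, 63 with array weights, 14 without the 5 libraries under 250000 reads, 115 as an equal-weight average of the tissue contrasts (107 with 1 sign in the 3 tissues), 11 without blood and 16 without lung. An alternative chosen after seeing the data, voom precision weights, gave 175 (167 with 1 sign). Leaving out 1 library gave 17 to 83 (16 to 83 with 1 sign).

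In blood the count of 110 was 250 with a limit of 100, 0 without trend and robust prior, 288 with array weights, 179 without the shallow libraries, 780 with voom weights, and 2 to 351 without 1 library. In spleen 27 became 14, 49, 59 and 4 under the last 4 kinds of fit, 51 with the replicate block, and 10 to 219 without 1 library. In lung 2 became 0, 1, 1 and 4, 1 with the Ddx3y and Eif2s3y level as a covariate (also chosen after seeing the data), and 0 to 5 without 1 library. The 13 interaction genes became 22 with a limit of 100, 20 with median-ratio and 21 with TMM rescaling, 0 without trend and robust prior, 102 with array weights, 85 without the shallow libraries, 8 with the replicate block, 128 with voom weights, 32 thinned to 100000 reads (chosen after seeing the data), and 3 to 172 without 1 library. With neither trend nor robust prior, 967 genes had an unadjusted p under 0.05 with tissue as block. Thinning turned Cdk4 to -0.20, Axl to -0.59 and Traf6 to -0.095. The causes were not tested.

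With the replicate number as a block 31 genes passed, 27 of the 39 among them. The numbers marked no shared deviation: correlations ran from -0.08 to 0.03 in 5 pairs of 1 tissue and from -0.13 to 0.07 in 9 pairs of 1 status. They do not show whether 1 mouse gave libraries of several tissues. Of the 39 genes, 8 passed with neither trend nor robust prior, 9 without the shallow libraries, 11 without blood, 13 without lung, 18 without spleen (where 56 passed in all), 22 after thinning (45 in all), 28 with TMM rescaling, 33 with a pseudocount of 0.1, 34 with array weights, 37 with voom weights, and all 39 with quantile or median-ratio scaling. Count models were not run, since in 8 libraries fewer than 95% of low values came out as whole reads.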

Other observations

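Receptors for products of the microbiota, a list of 13 tested genes, had 0 passing. At an unadjusted p under 0.05, 0 were higher and 2 lower in GF (15.4%). Over all genes 6.86% were higher and 5.41% lower at that limit. Hcar2, a receptor for butyrate and niacin, stood at -0.40 (adjusted p = 0.219) with -0.60 in blood, -0.48 in spleen and -0.19 in lung. Ahr, the aryl hydrocarbon receptor, stood at -0.91 (adjusted p = 0.359), with 1.46 ± 2.21 in GF against 6.29 ± 4.64 in SPF libraries (SD, n = 8 each), levels of few reads. Of 25 genes of the oxidase and of phagocytosis 0 passed, with 6 higher (24%) and 3 lower (12%) at that limit. Of 40 lysosome and lipid genes 0 passed, with 5 (12.5%) and 3 (7.5%). Glycolysis and hypoxia had 0 of 30, with 4 higher (13.3%) and 0 lower, and the ageing and trafficking receptors 0 of 21, also with 4 (19%) and 0.

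Mitochondrially encoded genes, 13 in number, had medians of -0.59 in blood, 0.21 in spleen and 0.71 in lung, and 0 passed. Of the lists for other cells, 0 passed among 20 erythroid and platelet genes, 23 lung structural genes, 23 genes of B cells and MHC class II, 5 of eosinophils, basophils and mast cells, 4 of dendritic cells and 3 of T and NK cells. Lyve1, a marker of lymphatic endothelium, had the smallest p of the lung structural genes, at 1.28 (adjusted p = 0.0924), and was at 0 reads in 2 GF and 5 SPF libraries.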
